A study of Mus musculus with 4 samples.

Results

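Cdkn1a and Phlda3 are target genes of the transcription factor p53, and both were measured here by RNA sequencing in NIT-1, a β cell line of the mouse strain NOD/Lt. Their rows were found by gene identifier, and each gene had 1 row among the 406 named rows (373 genes) of the deposited tables, which makes 2 of 373 genes. The 2 control libraries came from cells transfected with the plasmid pRP[Exp]-CMVE>EGFP. The 2 ERRγ libraries came from cells transfected with pRP[Exp]-EGFP >ERRγ, which carries ERRγ, the orphan nuclear receptor encoded by Esrrg. All cells were at passages 20 to 25, and every flask was given 16 µL of a liposomal reagent and 8.3 µg of plasmid, so each difference below is between cells given these different plasmids, in a single cell line. Both plasmid names include EGFP. The labels call the 2 libraries of a group biological replicates but do not say how the cultures were separated, and the time from transfection to RNA isolation is not given in the sources used here.

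p53 is held at a low level in unstressed cells and accumulates after DNA damage and other stresses, when it binds paired half-sites near its target genes and raises their transcription. Cdkn1a encodes p21, which binds complexes of cyclins and cyclin-dependent kinases and so holds the cell cycle. Phlda3 encodes a small protein with a pleckstrin homology domain that competes with the kinase Akt for membrane lipids and so restrains Akt signalling. Both genes also respond to signals other than p53. Whether p53 acts in this way in NIT-1 cells was not tested here. In islets, p21 has been proposed as a brake on β cell division, and PHLDA3 is known as a suppressor of pancreatic neuroendocrine tumours.

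The sequence before each start site is shown because p53 is known to act on Cdkn1a through sites upstream of the gene. The RefSeq tables (GRCm38.p6) gave 2 start sites for Cdkn1a and 1 for Phlda3, all on the plus strand, and the 250 bases before each are printed 5′ to 3′. Capitals mark matches to the p53 half-site consensus and to ACATGT, which holds the CATG core typical of such half-sites; ACATGT was added after the sequences were seen.
Cdkn1a, upstream start site, chr17:29090729-29090978: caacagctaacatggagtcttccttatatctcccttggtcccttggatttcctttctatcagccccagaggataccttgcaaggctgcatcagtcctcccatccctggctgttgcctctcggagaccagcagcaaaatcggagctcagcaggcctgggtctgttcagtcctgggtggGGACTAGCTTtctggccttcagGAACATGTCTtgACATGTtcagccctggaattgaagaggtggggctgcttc
Cdkn1a, downstream start site, chr17:29093519-29093768: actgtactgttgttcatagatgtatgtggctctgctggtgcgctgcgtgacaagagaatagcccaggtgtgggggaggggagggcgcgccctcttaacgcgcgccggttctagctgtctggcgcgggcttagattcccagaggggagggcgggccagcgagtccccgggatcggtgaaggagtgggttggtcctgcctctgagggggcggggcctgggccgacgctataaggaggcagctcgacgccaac
Phlda3, chr1:135765835-135766084: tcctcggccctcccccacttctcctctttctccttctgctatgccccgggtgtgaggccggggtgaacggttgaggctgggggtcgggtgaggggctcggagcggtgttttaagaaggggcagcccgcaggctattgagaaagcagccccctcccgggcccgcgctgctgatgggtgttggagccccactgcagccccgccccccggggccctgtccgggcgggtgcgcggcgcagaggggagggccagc

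The upstream Cdkn1a window held 2 matches to the half-site consensus, at 29090906 to 29090915 and at 29090928 to 29090937 of chromosome 17. It also held 2 copies of ACATGT spaced by 4 bases, ACATGTCTtgACATGT. The downstream Cdkn1a window held no match to either. In the Phlda3 window the half-site consensus was not matched, but a half-site around the ACATGT at its end would run past the searched bases. Such a half-site could therefore not have been found. This 1 copy of ACATGT closed the window, at 135766129 to 135766134 inside the first exon that RefSeq gives. It ends the last 20 bases of the window, chr1:135766115-135766134, aggcgagcggtggaACATGT. Over all 32851 RefSeq windows, which run from 250 bases before to 50 bases after a start, the half-site consensus was matched in 8.36% and ACATGT in 5.28%. The spaced pair ACATGTNNNNACATGT was found in 4 windows (0.0122%), 1 of which was the upstream Cdkn1a window. Being made of ACATGT, the pair too was set after this window was seen, so its rarity is a description only. The response element of ERR receptors was searched on both strands as AAGGTCA, found in 4.72% of windows, and as TNAAGGTCA, which contains it, found in 1.28%. Neither was found in the 3 windows of these genes, which says only that these letters are not in these windows.

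Cdkn1a (ENSMUSG00000023067) spans 29090976 to 29100727 of chromosome 17, plus strand, in GENCODE M21 (GRCm38). Its row had a length of 1910 nucleotides, which equals none of its 5 annotated transcripts; the nearest was the coding transcript Cdkn1a-201 with 1913. An unclassified gene on the minus strand, AC167363.2, overlaps it from 29093416 to 29094461, and as no source says that strand was used in counting, reads from both cannot be told apart there. Phlda3 (ENSMUSG00000041801) spans 135766119 to 135769136 of chromosome 1, plus strand, and no other annotated gene overlaps it. Its row, of 1435 nucleotides, matched the coding transcript Phlda3-201 of 2 exons.

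Libraries held between 16605943 and 18769899 reads. These sizes were recovered from the deposited reads, RPKM values (reads per kilobase per 1000000 reads of the library) and annotated transcript lengths. The transfected gene followed the labels: Esrrg-201 had 23 and 0 reads in control replicates 1 and 2, and 12398 and 7262 reads in ERRγ replicates 1 and 2. The second Esrrg row, Esrrg-203, had 0 and 29 reads in the controls and 676 and 3436 reads in the ERRγ libraries. None of 18 β cell markers and none of 16 markers of leukocytes and other islet cells had a listed row, so the cell type was not checked here. Of 10 fibroblast and endothelial markers only Thy1 was listed, by the single row Thy1-204, a transcript of 446 nucleotides. This row had 0 reads in both controls and 22 and 24 reads in the ERRγ libraries, of which 2 in each were unique. Other transcripts of Thy1 were not listed, so the level of the gene is not known. The tables list a selection of rows by an unstated rule. In 41.9% of the 406 rows both ERRγ libraries lay above both controls in RPKM, so the position of a member above the controls is shared by many rows and is no independent evidence.

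Cdkn1a was higher in both ERRγ libraries than in either control. Control replicate 1 had 188 RPKM and control replicate 2 had 259 RPKM, against 315 RPKM in ERRγ replicate 1 and 312 RPKM in ERRγ replicate 2. The ERRγ libraries lay close together and above both controls, while the controls lay far apart. The group means were 224 ± 50.4 and 313 ± 2.11 RPKM (SD, n = 2), a ratio of 1.40. The lower ERRγ library exceeded the higher control by a factor of 1.20, and the higher ERRγ library exceeded the lower control by 1.67. With bulk RNA, more cells that express the gene and more RNA per cell cannot be told apart.

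Phlda3 was higher by nearly the same ratio. Control replicate 1 had 340 RPKM and control replicate 2 had 458 RPKM, against 545 RPKM in ERRγ replicate 1 and 596 RPKM in ERRγ replicate 2. The groups did not overlap, and here too the controls were farther apart than the ERRγ libraries. The means were 399 ± 83.8 and 571 ± 36.1 RPKM (SD, n = 2), a ratio of 1.43, with a factor of 1.19 between the lower ERRγ library and the higher control. By mean RPKM over the 4 libraries Phlda3 ranked 18th and Cdkn1a 37th of the 406 rows.

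**Figure D1:**
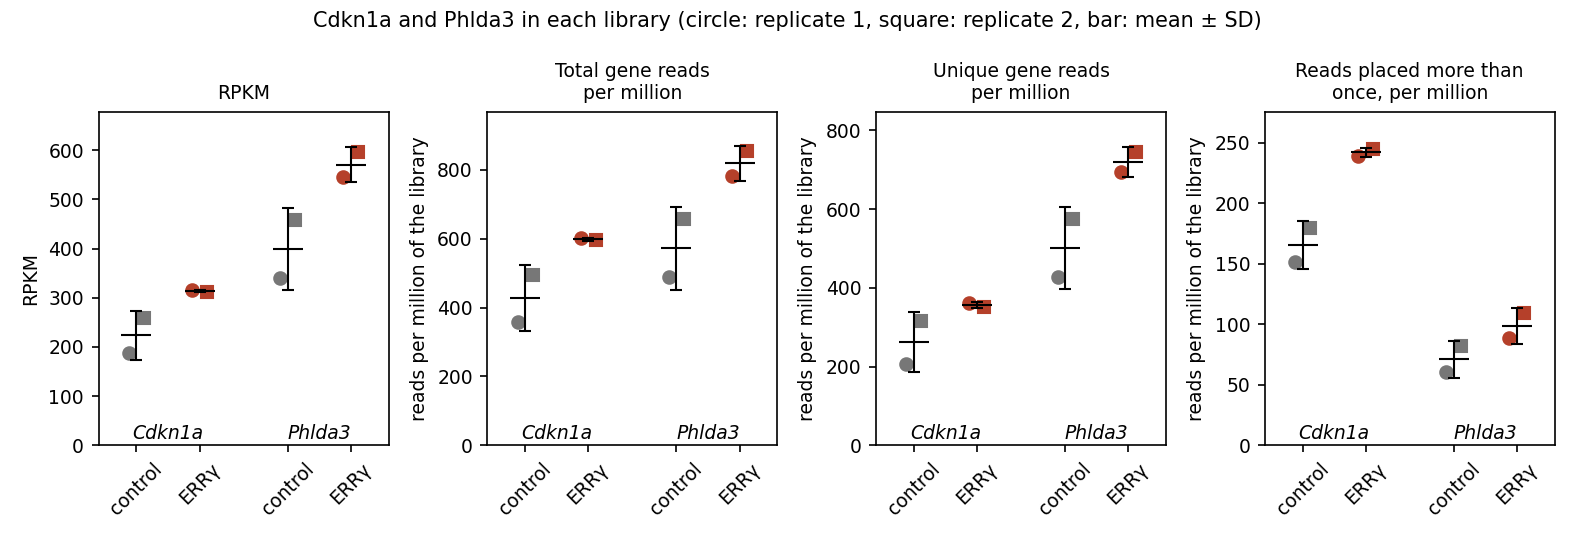
Cdkn1a and Phlda3 in each library, from left to right as RPKM, total gene reads, unique gene reads and the remaining reads, the last 3 per 1000000 reads of the library. Circles are replicate 1, squares replicate 2, and bars the mean ± SD (n = 2); in every panel both ERRγ libraries lie above both controls, and control replicate 2 lies above control replicate 1.

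Both genes kept nearly the same proportion to each other. The RPKM of Cdkn1a, divided by that of Phlda3, was 0.553 and 0.566 in control replicates 1 and 2, and 0.578 and 0.523 in ERRγ replicates 1 and 2. The control and ERRγ values overlapped, so the ratio did not separate the groups, although each gene on its own did.

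The difference between groups was tested on total gene reads with edgeR's quasi-likelihood test, scaled to the recovered library sizes, with p-values adjusted over all 375 rows tested. Neither gene passed an adjusted p of 0.05. The log2 fold change of ERRγ over control was 0.49 ± 0.17 (SE) for Cdkn1a (edgeR, adjusted p = 0.103) and 0.52 ± 0.16 for Phlda3 (edgeR, adjusted p = 0.0841), each higher in 2 of 2 ERRγ libraries. This test called 1.07% of the 375 rows higher, and the median log2 fold change over all rows was −0.27, so both genes lay above the middle of the list. For a single gene the exact two-sided permutation test of RPKM gave p = 0.333, the smallest that 2 libraries against 2 allow.

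Total gene reads include reads that the deposited tables do not count as unique. For Cdkn1a the unique reads were 3903 and 5330 in control replicates 1 and 2, and 6011 and 6130 in ERRγ replicates 1 and 2, of 6742, 8367, 9989 and 10407 total reads. They made up 57.9% of the reads in control replicate 1 (95% Wilson interval 56.7 to 59.1), 63.7% in control replicate 2 (62.7 to 64.7), 60.2% in ERRγ replicate 1 (59.2 to 61.1) and 58.9% in ERRγ replicate 2 (58.0 to 59.8). Control replicate 2 thus had the highest share, beyond counting error, which is all that these intervals cover. Phlda3 had 8021, 9727, 11521 and 13029 unique reads in the same order, of 9155, 11114, 12988 and 14941 total reads. Its unique share was steadier, between 87.2% and 88.7%.

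Sequence shared with other annotated transcripts differed between the genes. Of the windows of 151 bases, the read length, along Phlda3-201, 77.0% occurred in that transcript alone, and the others were shared only with the second transcript of Phlda3. Along Cdkn1a-201 5.16% of the windows occurred in that transcript alone, the others being shared with further transcripts of Cdkn1a. None of them was shared with another gene, but along Cdkn1a-205 112 of 1930 windows were shared with AC167363.2. How the authors defined a unique read is not given in the sources used here.

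In unique reads both genes passed the test. With the same library sizes the log2 fold change was 0.45 ± 0.16 (SE) for Cdkn1a (edgeR, adjusted p = 0.0263) and 0.52 ± 0.14 for Phlda3 (edgeR, adjusted p = 0.00517), again with both ERRγ libraries higher. Of the 121 rows with enough unique reads, 9.09% were called higher, and their median log2 fold change was −0.38. The standard errors were close to those in total reads. The unique-read fit leaned more on spread shared among rows, with 31.6 prior degrees of freedom against 2.50 in the total-read fit.

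Some of these calls were lost when a single library was left out, which leaves a lone library in a group. Without an ERRγ library far fewer of all rows were called as well, so that loss is not particular to these genes. The fold changes of both genes moved less without an ERRγ library than without a control. The unique-read call of Cdkn1a was lost without control replicate 1 (log2 fold change 0.18, edgeR, adjusted p = 0.101), without ERRγ replicate 1 (0.42, adjusted p = 0.267) and without ERRγ replicate 2 (0.47, adjusted p = 0.357). That of Phlda3 was lost without ERRγ replicate 1 (0.57, edgeR, adjusted p = 0.148) or ERRγ replicate 2 (0.47, adjusted p = 0.333) and held without control replicate 1 (0.32, adjusted p = 0.0074). Without control replicate 2 the unique-read fold changes were 0.78 for Cdkn1a and 0.75 for Phlda3 (edgeR, adjusted p = 9.33e-07 and 1.56e-07). In total reads the same pattern appeared in the size of the difference. Cdkn1a had a log2 fold change of 0.27 without control replicate 1 and 0.74 without control replicate 2, and Phlda3 had 0.32 and 0.75; none of these passed (edgeR, adjusted p between 0.0615 and 0.0994).

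**Figure D2:**
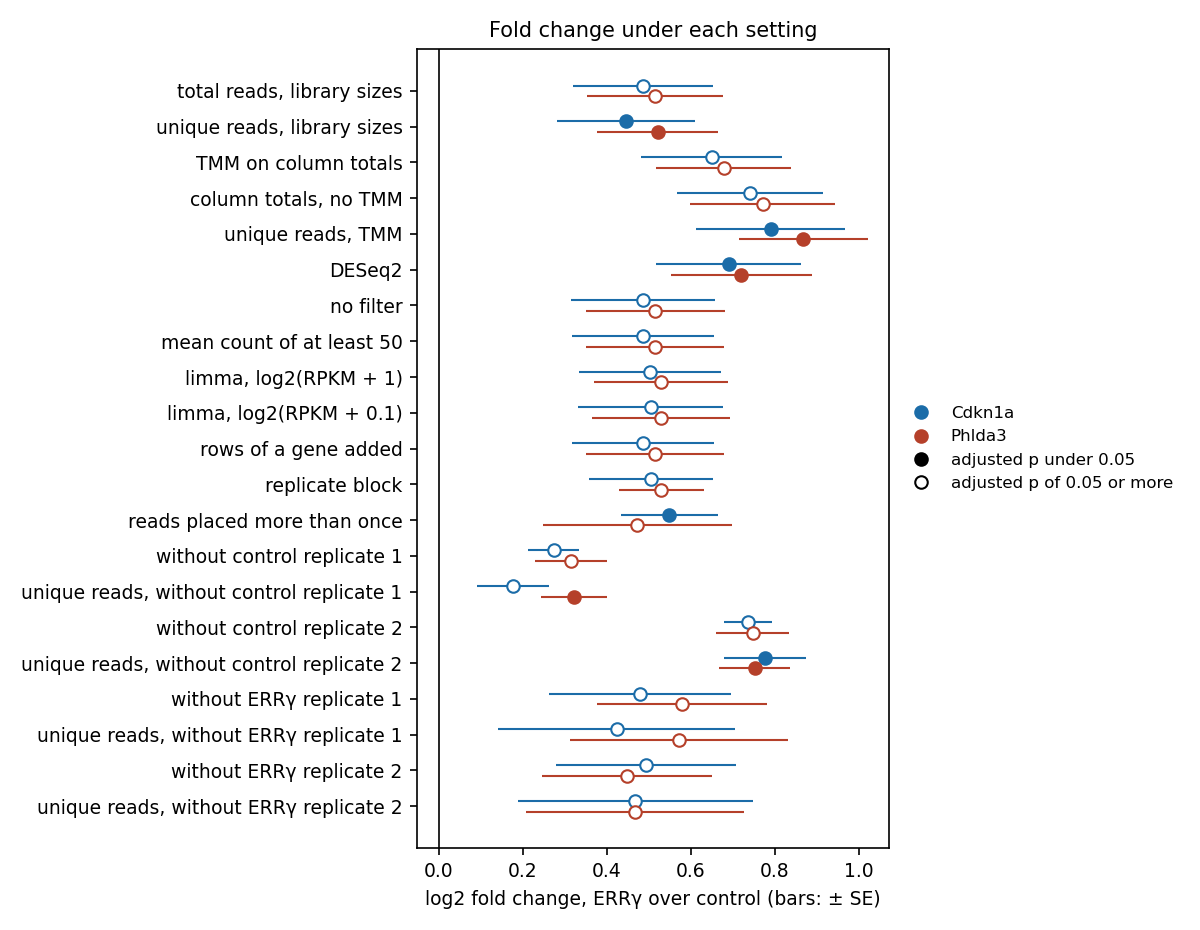
Log2 fold change of ERRγ over control for Cdkn1a (blue) and Phlda3 (red) under each count, scaling, tool and left-out library, with bars of ± SE; filled points have an adjusted p under 0.05. All points lie above 0, from 0.18 to 0.87, with the lowest of each gene where control replicate 1 is left out.

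The spread within the groups was uneven for both genes. Control replicate 2 exceeded control replicate 1 by a factor of 1.38 for Cdkn1a (95% exact interval for counting error 1.34 to 1.42) and by 1.35 for Phlda3 (1.31 to 1.39). ERRγ replicate 2 stood at 0.991 times ERRγ replicate 1 for Cdkn1a (0.964 to 1.02), a difference not detectable at this depth, and at 1.09 times for Phlda3 (1.07 to 1.12). The coefficient of variation of RPKM was 22.5% in control and 0.673% in ERRγ for Cdkn1a, and 21.0% and 6.33% for Phlda3. The difference in spread between the groups was not tested.

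The kind of read mattered for this spread in Cdkn1a. In its unique reads control replicate 2 exceeded control replicate 1 by a factor of 1.52 (1.46 to 1.58), and in its remaining reads by 1.19 (1.13 to 1.25). The remaining reads of Cdkn1a, 151 and 180 RPM (reads per 1000000 reads of the library) in the controls and 240 and 245 RPM in the ERRγ libraries, therefore separated the groups with a wider gap, the lower ERRγ library being 1.33 times the higher control. For unique reads that factor was 1.11. The remaining reads of Cdkn1a also passed when tested on their own (log2 fold change 0.55 ± 0.12, edgeR, adjusted p = 0.0495), a test chosen after seeing the data. In Phlda3 the controls differed by 1.35 in unique reads and by 1.36 in the remaining reads, and the remaining reads did not pass (edgeR, adjusted p = 0.192).

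Wider spread between the controls was shared by most rows. Of the 193 rows that averaged at least 10 RPKM and had reads in every library, 142 (73.6%) differed more between the controls than between the ERRγ libraries. The median absolute log2 ratio was 0.26 between controls and 0.13 between ERRγ libraries. Against these medians Cdkn1a had 0.46 and 0.01, and Phlda3 0.43 and 0.13. Between the controls 45 rows differed more than Cdkn1a and 51 more than Phlda3, and between the ERRγ libraries 181 and 102 rows did. The small difference of Cdkn1a between the ERRγ libraries was thus the 12th smallest of the 193 rows.

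Control replicate 2 lay on the side of the ERRγ libraries for both genes. The same held for 60 of the 77 rows (77.9%) in which both ERRγ libraries were above both controls. Among the 108 rows in which both were below, control replicate 2 was below control replicate 1 in 55 (50.9%). Over all 193 rows the median log2 ratio of control replicate 2 over control replicate 1 was 0.11, so control replicate 2 was somewhat higher in general. What set control replicate 2 apart from control replicate 1 was not tested.

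**Figure D3:**
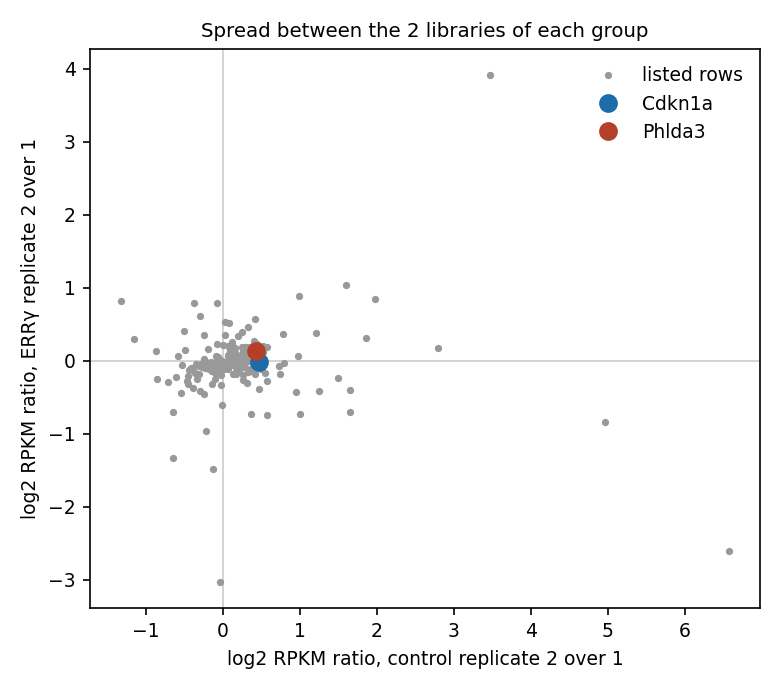
Log2 RPKM ratio of replicate 2 over replicate 1 in control (horizontal axis) and in ERRγ (vertical axis) for the 193 rows that averaged at least 10 RPKM and had reads in every library. Cdkn1a (blue, 0.46 and −0.01) and Phlda3 (red, 0.43 and 0.13) lie to the right of 0 on the control axis and near 0 on the ERRγ axis.

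Other targets of p53 did not share one direction. Of the 50 genes on the p53 target list that are reported here, 6 had a listed row, including both members. In RPKM 3 rows lay above both controls, 2 below and 1 overlapped, where 41.9% and 45.6% of all rows lay above and below. In the total-read test with edgeR 0 of the 6 rows were called (4 had an unadjusted p under 0.05, as had 41.1% of all 375 rows), and the median log2 fold change was 0.50, against −0.27 over all rows. DESeq2 called 3 of the 6 higher and 2 lower, and of all 406 rows it called 26.6% higher and 22.4% lower. In unique reads 3 rows could be tested, of which Cdkn1a and Phlda3 were called higher and Thbs1 lower, with a median of 0.45 against −0.38. Of all 121 rows, 51.2% were called lower in this test. None of 13 genes that encode p53 or its regulators, Mdm2 and Mdm4 among them, had a listed row.

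Gdf15, which encodes a secreted stress cytokine, was the third p53 target above both controls. Its row Gdf15-202 had 49.4 RPKM in control replicate 1, 82.0 in control replicate 2, 96.5 in ERRγ replicate 1 and 92.1 in ERRγ replicate 2. As with the members, the controls were farther apart than the ERRγ libraries. The difference between groups did not pass (log2 fold change 0.52 ± 0.28, edgeR, adjusted p = 0.193). Between 0 and 1 of its reads in a library was unique. Shisa5-216, of a gene for an apoptosis-linked membrane protein, stood at 4.26 and 0.105 RPKM in control and at 0.642 and 21.6 RPKM in ERRγ, so the groups overlapped.

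Thbs1 and Lif are p53 targets that also respond to growth factors and cytokines, and both lay below the controls in each ERRγ library. Thbs1-201, for the matrix glycoprotein thrombospondin, stood at 271 and 178 RPKM in control and at 127 and 109 RPKM in ERRγ, with the controls again apart (edgeR, adjusted p = 0.0531 in total reads and 7.59e-06 in unique reads). Lif-201, for a cytokine of the interleukin-6 family, stood at 22.8 and 29.9 RPKM in control and at 14.1 and 14.1 RPKM in ERRγ. Its difference did not pass in total reads (edgeR, adjusted p = 0.0518). Only 5 and 0 of its reads were unique in control replicates 1 and 2, and 1 and 0 in ERRγ replicates 1 and 2. It was therefore not among the rows tested in unique reads.

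**Figure D4:**
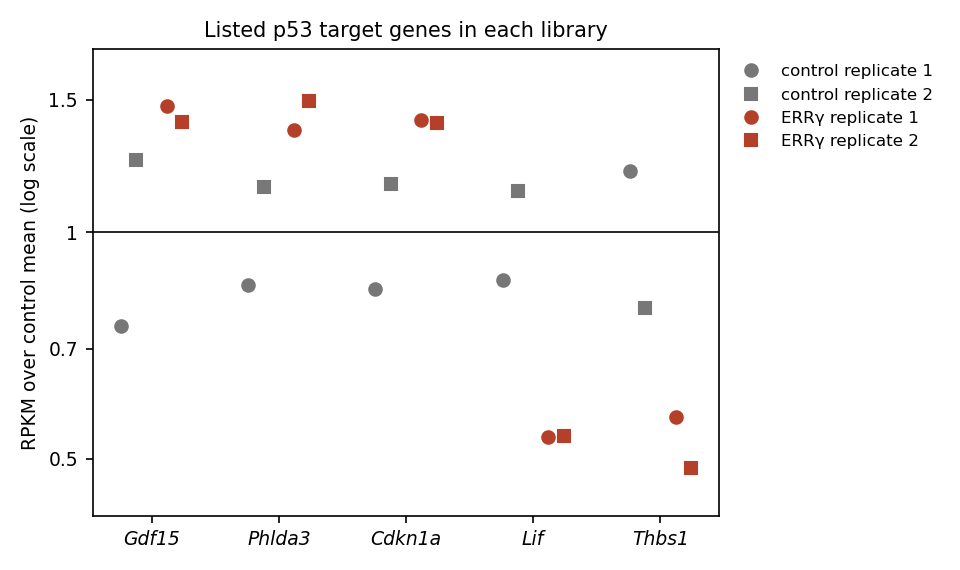
RPKM of 5 listed p53 target genes in each library, divided by the control mean of the gene, on a log scale; Shisa5, whose groups overlapped, is left out. Gdf15, Phlda3 and Cdkn1a lie above both controls in ERRγ and Lif and Thbs1 below.

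The cell cycle and Akt genes next to the members in their pathways were few among the listed rows. Of 23 CDK inhibitors, cyclins, CDKs and related genes, only Cdkn1a was listed, and none of 25 proliferation genes was. Of 23 genes of the PHLDA family and the Akt pathway, Phlda3 and its relative Phlda1 were listed. Phlda1-201, whose reads were all unique, stood at 60.3 and 70.0 RPKM in control and at 47.3 and 45.4 RPKM in ERRγ, opposite in direction to Phlda3. Its log2 fold change was −0.49 ± 0.15 in total reads (edgeR, adjusted p = 0.0796) and −0.49 ± 0.17 in unique reads (edgeR, adjusted p = 0.0222), a call lost without ERRγ replicate 1 (0.228) or ERRγ replicate 2 (0.361). With unique reads scaled by TMM, which assumes that most rows do not change, it was −0.15 (adjusted p = 0.477).

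The rows most like the members were found by the largest difference, over the 4 libraries, between log2 RPKM values centred on each row's mean. Over 192 other rows, Phlda3 was the second nearest to Cdkn1a (0.08), and Cdkn1a the fifth nearest to Phlda3 (0.08). The nearest to both was Dph3-207, a processed transcript of a diphthamide synthesis gene, at 33.1, 46.9, 53.8 and 58.5 RPKM in control replicates 1 and 2 and ERRγ replicates 1 and 2. Only 0.0508% of its reads were unique. Rpp25-201, for a subunit of ribonuclease P, was near to both as well, at 27.8 and 34.2 RPKM in control and 43.4 and 45.8 RPKM in ERRγ, and all its reads were unique. Further near rows were Pmm1-201 and Tpgs1-201 for Cdkn1a, and Gpi1-207 and Wdr74-201 for Phlda3. Since 4 libraries define the pattern, such likeness is a description only.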

How the data were processed

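RNA sequencing of 2 control and 2 ERRγ libraries was analysed; groups and replicate numbers came from the sample titles. Per the file headers, the authors deposited RPKM values beside 2 raw counts for each row, unique gene reads and total gene reads. The genome build is mm8 per the submitters' processing notes, the aligner, counter and annotation being not given in the sources used here, and no mm8 coordinate is printed. Library sizes were recovered by dividing total reads by RPKM and by the lengths of the gene's GENCODE M21 transcripts. The value that occurred most often was taken for each library. With these sizes row lengths were whole, within 0.01 nucleotides, for all 406 named rows. The 3 unnamed rows (0.0121% to 0.0332% of listed reads) were left out. Row lengths were then matched to the same GENCODE M21 transcripts, so this match does not stand apart from the library sizes. A row counts as named where its gene identifier matched a symbol.

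Total reads were tested with edgeR 4.0.16 (R 4.3.3; glmQLFit, glmQLFTest, filterByExpr, recovered library sizes, no TMM, no replicate block), with Benjamini-Hochberg adjustment over all rows tested and a threshold of 0.05. Each standard error is the absolute log2 fold change divided by the square root of F. This scaling was taken as the main one because a list of selected rows does not add up to the depth of its library. Alternatives were unique reads, TMM, column totals, other filters (none, or a mean count of at least 50), summed rows, a replicate block, each library left out, DESeq2 1.42.0, and limma 3.58.1 on log2(RPKM + 1) or log2(RPKM + 0.1) for rows that averaged at least 1 RPKM. With 1 library left out, the lone library of a group is assumed to vary like the other group. The fit was also run on simulated counts. Those were set with less spread between libraries than the total-read fit found, and with larger differences than those of the members. That run therefore does not show how the fit performs on these data. The members had 3903 or more unique reads in each library, which leaves a counting error well below the spread between controls. The members, gene lists and tests were chosen with earlier results of these data known. The rows reported singly were the members, Esrrg and every listed row of the gene lists. For each member, the 5 rows of other genes with the most similar pattern were reported too. A further listed row of the p53 target list is not reported here. The edgeR p-values set each difference between groups against the spread between these libraries, moderated by the spread shared among rows. Spread between these libraries may be technical.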

Additional observations from a re-analysis of the deposited data

How the results depend on the processing

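Both genes stayed higher in ERRγ under all 20 alternatives, with log2 fold changes from 0.18 to 0.79 for Cdkn1a and from 0.32 to 0.87 for Phlda3, and each passed in 5 of the 20. All 20 reuse the same 4 libraries. Both ERRγ libraries lay above both controls in each kind of read, so leaving 1 library out could not turn the direction. Past the threshold were, for Cdkn1a and Phlda3, unique reads with library sizes (0.45 and 0.52), unique reads with TMM (0.79 and 0.87) and DESeq2 (0.69 and 0.72). Added after seeing the data, Cdkn1a also passed in the remaining reads (0.55), labelled in the figures as placed more than once. Unique reads with 1 library left out were added then too. There Cdkn1a passed without control replicate 2 alone, and Phlda3 without control replicate 1 or control replicate 2. Over the left-out libraries the log2 fold changes in unique reads ran from 0.18 to 0.78 for Cdkn1a and from 0.32 to 0.75 for Phlda3. With total reads and 1 library left out they ran from 0.27 to 0.74 and from 0.32 to 0.75. In total reads 25 of 375 rows passed, 4 of them higher and 21 lower. In unique reads 73 of 121 rows were called (11 higher and 62 lower). Unique reads with TMM called 41 of 120 (29 higher and 12 lower), and TMM on total reads called 1 of 373. Column totals called 3 of 373 (2 higher and 1 lower), and DESeq2 called 199 of 406 (108 higher and 91 lower). Without a filter 1 of 406 rows was called, and with a mean count of at least 50 there were 42 of 328. With limma 3 and 53 of 406 were called (pseudocount of 1 and 0.1), and in the remaining reads 59 of 350. With 1 library left out, 1 to 2 rows were called in total reads and 10 to 98 in unique reads (67 and 98 without control replicates 1 and 2, 14 and 10 without ERRγ replicates 1 and 2). These unique-read fits tested 129 and 135 rows without control replicates 1 and 2, and 135 and 137 without ERRγ replicates 1 and 2. With the replicate number as a block 1 of 375 rows was called. Cdkn1a (0.51, edgeR, adjusted p = 0.140) and Phlda3 (0.53, edgeR, adjusted p = 0.0912) did not pass, as without the block. Deviations of same-numbered libraries had a correlation of −0.07 across 375 rows, so the numbers were not taken as pairs. Under TMM in place of library sizes, the median over all rows went from −0.27 to −0.10 in total reads and from −0.38 to −0.03 in unique reads. The causes of these shifts were not tested.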
